A study of Homo sapiens with 10 samples.

Results

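The HOX cluster genes are the 39 protein-coding rows of the count table, of 55841 rows in all, whose GENCODE symbol is HOXA, HOXB, HOXC or HOXD followed by a paralog number. They comprise 11 HOXA, 10 HOXB, 9 HOXC and 9 HOXD genes, and all 39 known members of the 4 human clusters had a row. The RNA of 10 libraries was sequenced, all from human embryonic stem cells labelled as the line HES9 and grown in mTESR1 medium on matrigel. The general libraries came from the unsorted culture, and the HHH libraries from cells sorted by flow cytometry for high EPCAM, GCTM2 and CD9, cell surface antigens of pluripotent stem cells. Batch 1 held general replicates 1 and 2 and HHH replicates 2 and 3, and batch 2 held 3 libraries of each population. All libraries come from a single line with no genetic change or named treatment in their labels, although the series' design text mentions protein kinase C inhibitors. The sorted cells are also part of the unsorted culture, so the populations are not exclusive. The comparison asks whether the HOX genes differ between the sorted fraction and the whole culture within each batch.

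HOX genes encode homeodomain transcription factors that give cells along the head-to-tail axis of the embryo their positional identity. Within a cluster they are activated in order, from the anterior, low-numbered paralog groups at the 3′ end to the posterior, high-numbered groups at the 5′ end, as retinoic acid, WNT and FGF signals and the CDX factors open the chromatin. Before gastrulation, and in pluripotent stem cells, the clusters are known to be held silent by Polycomb complexes over CpG-rich promoters, while trithorax proteins and histone demethylases act in the opposite direction.

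None of the 39 HOX genes reached 1 CPM (a count per 1000000 counts of a library, its size scaled by TMM) in any library, in either population or either batch. The highest count of any member in any library was 4, for HOXB3 in HHH batch 1 replicate 2 and for HOXC5 in both HHH libraries of batch 1. The highest single value was 0.0915 CPM, which is 10.9 times under 1 CPM, and the highest mean of a population and batch was 0.0886 CPM. Per kilobase of exon the highest value was 0.0568 RPKM. All 39 members were thus under 1 CPM in the general libraries of batch 1, in the HHH libraries of batch 1, and in both populations of batch 2.

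Most protein-coding genes lay above this level. Libraries held 47242595 to 78503395 counts, and 1 CPM stood for 43.7 to 65.3 counts. Of the 19064 protein-coding rows, 28.8% were under 1 CPM in all 4 combinations of population and batch, and 13.7% had no more than 4 counts in every library, as all HOX members did. Of the HOX genes 17 of 39, or 43.6%, had 0 counts in all 10 libraries, against 5.25% of protein-coding rows. A count of 0 in a library allows up to 3 counts, which is 0.0459 to 0.0686 CPM depending on the library, for counting error only. HOX genes had a median exonic length of 2456 bases against 4552.5 for protein-coding genes. In bulk RNA, a few cells with much HOX RNA and many cells with little cannot be told apart.

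**Figure D1:**
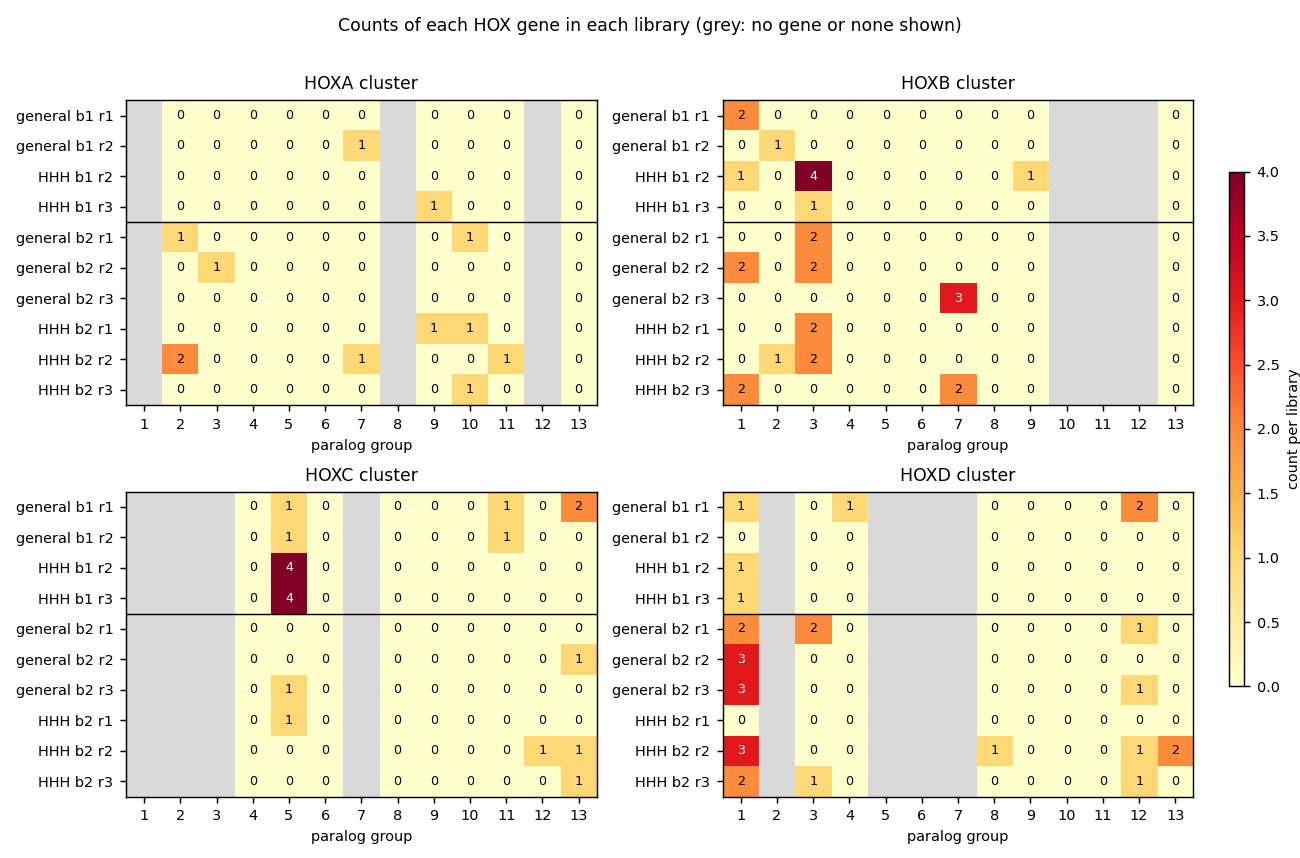
Counts of each HOX gene by cluster and paralog group (horizontal axis) in each library (vertical axis; b is the batch and r the replicate, and the line divides batch 1 from batch 2). Grey marks positions with no gene or with none shown. Colour and number give the raw count, which never exceeded 4, and most squares are 0.

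Of the 390 values formed by 39 genes in 10 libraries, 332 were 0, 35 were 1, 15 were 2, 5 were 3 and 3 were 4. Together they came to 92 counts among 565380178. In the general libraries of batch 1 the members summed to 13 and 4 counts, and in the HHH libraries of that batch to 11 and 7. In batch 2 they summed to 9, 9 and 8 counts in the general libraries and to 5, 16 and 10 in the HHH libraries. The populations overlapped in both batches, and HHH batch 2 held both the second lowest and the highest sum of all libraries. Pooled over libraries, HOX genes summed to 0.143 CPM in general (95% exact Poisson interval 0.104 to 0.193, 43 counts) and to 0.186 CPM in HHH (0.138 to 0.246, 49 counts). These intervals overlap and cover counting error only.

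The HOXA cluster lies at chr7:27092993-27200091 (GRCh38, as are all coordinates here) and had 15 counts over 11 genes and 10 libraries. HOXA4, HOXA5, HOXA6 and HOXA13 had 0 counts throughout. HOXA2, a regulator of hindbrain and branchial arch identity, had 2 counts in HHH batch 2 replicate 2 and 1 in general batch 2 replicate 1. HOXA3, HOXA7, HOXA9, HOXA10 and HOXA11 never exceeded 1 count in a library. The summed level of the cluster was 0.0313 ± 0.0206 CPM (SD, n = 2) in general and 0.0114 ± 0.0162 (n = 2) in HHH in batch 1, and 0.0174 ± 0.0173 (n = 3) and 0.0404 ± 0.0262 (n = 3) in batch 2. The order of the populations thus differed between the batches, at 4 against 1 count in batch 1 and 3 against 7 in batch 2, and single libraries of the populations overlapped in both. Without the members that overlap another gene by 20% or more of their exons, batch 2 was at 0.0116 CPM in general and 0.0115 in HHH.

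The HOXB cluster, at chr17:48528526-48728750, had 28 counts over 10 genes. HOXB4, HOXB5, HOXB6, HOXB8 and HOXB13 had 0 counts in all libraries. HOXB3 carried 13 of the 28, with 0 and 0 counts in general and 4 and 1 in HHH in batch 1. In batch 2 its counts were 2, 2 and 0 in general and 2, 2 and 0 in HHH. HOXB3 thus separated the populations in batch 1 and gave the same counts in both in batch 2. HOXB1, which marks rhombomere 4 of the hindbrain and responds directly to retinoic acid, had 7 counts, with 2 and 0 in general and 1 and 0 in HHH in batch 1, and 0, 2 and 0 against 0, 0 and 2 in batch 2. HOXB7 had 3 counts in general batch 2 replicate 3 and 2 in HHH batch 2 replicate 3. HOXB2 had 1 count in each of 2 libraries, and HOXB9 had 1 count in 1.

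The HOXC cluster, at chr12:53938831-54056030, had 20 counts over 9 genes, and HOXC4, HOXC6, HOXC8, HOXC9 and HOXC10 had 0 throughout. HOXC5 carried 12 of the 20. It had 1 and 1 count in general and 4 and 4 in HHH in batch 1, and 0, 0 and 1 in general and 1, 0 and 0 in HHH in batch 2. The HHH libraries were thus above the general ones in batch 1 only, where an exact two-sided permutation test of 2 against 2 libraries cannot give a p below 0.333, and batch 2 showed no such gap. HOXC13, the most posterior member, had 5 counts in 4 libraries. HOXC11 had 1 count in each general library of batch 1, and HOXC12 had 1 count in all.

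The HOXD cluster, at chr2:176092721-176190907, had 29 counts over 9 genes, and HOXD9, HOXD10 and HOXD11 had 0. HOXD1, its most anterior member, had the most counts of any HOX gene, 16 in 8 of 10 libraries. Its counts were 1 and 0 in general and 1 and 1 in HHH in batch 1. In batch 2 they were 2, 3 and 3 in general and 0, 3 and 2 in HHH, and the populations overlapped there. HOXD12 had 6 counts in 5 libraries, HOXD3 had 3 counts in 2, and HOXD13, a regulator of digit formation, had 2 counts in HHH batch 2 replicate 2 alone. HOXD4 and HOXD8 had 1 count each.

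By position, the anterior paralog groups 1 to 3 held 48 of the 92 counts in 8 genes, and no member of these groups was at 0 in all libraries. They made up 26.3% of the exonic length of the HOX genes and 52.2% of their counts, or 1.77 counts per kilobase over all libraries. Groups 4 to 8 had 21 counts (0.666 per kilobase) with 10 of 15 members at 0. Groups 9 to 13 had 23 counts (0.517 per kilobase) with 7 of 16 at 0. Group 1 was the highest, at 3.76 counts per kilobase, and HOXD1 (8.48 per kilobase) and HOXC5 (7.45 per kilobase) were the highest genes. Group 6 had 0 counts. Over both batches, groups 1 to 3 had 25 counts in general and 23 in HHH, groups 4 to 8 had 8 and 13, and groups 9 to 13 had 10 and 13. Groups 1 to 3 had 7 and 8 in batch 1 and 18 and 15 in batch 2. Groups 4 to 8 had 4 and 8 in batch 1, where all 8 in HHH were of HOXC5, and 4 and 5 in batch 2. Groups 9 to 13 had 6 and 2 in batch 1 and 4 and 11 in batch 2. Their order thus differed between the batches, and single libraries of the populations overlapped in both.

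No difference between HHH and general was testable for the HOX genes at the usual minimum of reads. None of the 39 passed edgeR's filter on low counts (at least about 10 counts in a library of median size, in as many libraries as the smaller population has), so none entered the fit in both batches, in either batch alone, or the test of whether the change differs between batches. Among the 23552 genes that did enter, 2.98% were called at an adjusted p under 0.05 and over 1.5-fold, 0.637% higher and 2.34% lower in HHH. The share called was 0.573% when only batch 1 was fitted and 4.9% when only batch 2 was, and 0.777% passed the test of the difference between batches. With no filter, the 22 HOX genes with any count could be fitted, and edgeR called 0 of 22, with 0 at an unadjusted p under 0.05, where 2.51% of all rows fitted were called. DESeq2 and limma were run only behind the filter. The smallest p among the 22 was that of HOXC5 (unadjusted p = 0.15, adjusted p = 0.565 by edgeR's quasi-likelihood test), with a fitted log2 fold change of 1.62 (SE 1.13). HOXB3 had a fitted log2 fold change of 1.24 (SE 1.02, adjusted p = 0.644 in edgeR), and HOXD1 one of -0.15 (SE 0.94, adjusted p = 0.969 in edgeR). Standard errors of this size span several-fold changes in either direction, so a difference was not detectable at this depth, which does not show that the populations were alike.

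Without a test, the libraries of the populations did not overlap for 4 of 39 members in batch 1. HOXB3, HOXC5 and HOXD1 were higher and HOXC11 lower in HHH, on 1 to 4 counts in the higher libraries. For HOXD1 a count of 1 in a general library tied with 1 and 1 in HHH, and the values separated only through the smaller HHH libraries. In batch 2 this held for 0 of 39. Over all 55841 rows the libraries did not overlap for 26.4% in batch 1 and 18.1% in batch 2, and rows at 0 in all libraries, such as 17 of the HOX genes, cannot be separated.

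In the annotation 8 of 39 members overlap another counted gene over at least 20% of their exonic bases, in most cases an antisense RNA, and these 8 held 9 counts. The 15 members that share no exonic base held 40 counts. HOXC5 shares none, HOXD1 shares 7.69% with the antisense RNA HAGLR, and HOXB3 shares 11.7% with HOXB-AS1, HOXB-AS3, HOXB4 and HOXB6. Whether the counting used strand is not given in the sources used here, so reads of a HOX gene and of its antisense partner cannot be told apart.

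Promoter sequences are shown for a few of these nearly unread genes. RefSeq windows of 300 bases, from 250 before to 50 after a start, were found for 20 of the 39 genes (27 windows, GRCh38.p14). Their median was 22 CG dinucleotides, counted on the strand given, against 14 over 35116 windows of all genes, and 37.7% of all windows held 22 or more. Shown are HOXD1, the gene with the most counts (chr2:176188418-176188717, plus strand, 36 CG, a number reached by 12.7% of all windows), HOXC5, the gene with the largest gap in batch 1 (chr12:54016638-54016937, plus strand, 15 CG, reached by 48.9%), and HOXA13, the most CG-rich window of the family, whose gene had 0 counts (chr7:27200042-27200341, minus strand, 44 CG, reached by 4.19%). HOXB3 has no entry. The window listed for HOXC5 is also the one listed for HOXC4, which had 0 counts, and lies at a start 16.2 kb upstream of the HOXC5 gene as GENCODE places it. Capitals mark CG, each read 5′ to 3′ on the gene's strand.
HOXD1: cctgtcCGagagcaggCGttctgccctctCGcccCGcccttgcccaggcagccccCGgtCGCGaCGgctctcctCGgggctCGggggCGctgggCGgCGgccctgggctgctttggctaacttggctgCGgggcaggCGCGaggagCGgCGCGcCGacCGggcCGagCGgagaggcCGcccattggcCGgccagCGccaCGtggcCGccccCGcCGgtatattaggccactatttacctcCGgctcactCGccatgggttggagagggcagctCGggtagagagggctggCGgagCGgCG
HOXC5: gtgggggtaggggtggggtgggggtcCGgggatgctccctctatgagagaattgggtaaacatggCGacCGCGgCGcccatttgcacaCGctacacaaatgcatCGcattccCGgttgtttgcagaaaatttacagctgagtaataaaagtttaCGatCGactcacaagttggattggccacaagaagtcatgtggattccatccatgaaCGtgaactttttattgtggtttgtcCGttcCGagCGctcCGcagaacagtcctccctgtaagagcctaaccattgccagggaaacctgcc
HOXA13: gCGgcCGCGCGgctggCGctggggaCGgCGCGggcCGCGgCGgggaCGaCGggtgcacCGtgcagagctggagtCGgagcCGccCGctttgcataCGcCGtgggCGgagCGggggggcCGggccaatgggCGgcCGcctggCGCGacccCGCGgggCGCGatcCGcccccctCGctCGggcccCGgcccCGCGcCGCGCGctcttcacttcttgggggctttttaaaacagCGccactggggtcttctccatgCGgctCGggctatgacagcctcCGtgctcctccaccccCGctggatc

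The windows of HOXD1, with 16 counts, and HOXA13, with none, were both richer in CG than the median window. No methylation or chromatin measurement was used here, and the dinucleotide count is a description of the reference only.

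Many genes beside the clusters were expressed. The protein-coding genes within 500 kb on either side comprised 42 rows, of which 29, or 69.0%, had at least 1 CPM in all 4 combinations of population and batch, as 67.1% of all protein-coding rows did. The neighbours named here were chosen after their values were seen, as the nearest expressed gene on each side. SKAP2, 97.8 kb from HOXA, averaged 4.12 CPM over the 10 libraries, and HIBADH, an enzyme of valine breakdown 325 kb from its other end, averaged 35.3 CPM. TTLL6 lies 33.5 kb beyond HOXB and averaged 4.41 CPM, and SNX11, 405 kb from its other end, averaged 19.4 CPM. SMUG1, a uracil-DNA glycosylase 65.2 kb from HOXC, averaged 17.2 CPM, and CALCOCO1, 211 kb from the other end, averaged 8.49 CPM. LNPK and MTX2 lie 89.9 and 78.5 kb from the ends of HOXD and averaged 23.3 and 29.7 CPM. EVX1 and EVX2, homeobox genes that adjoin HOXA and HOXD, were as low as the HOX genes. EVX1 had 0 counts in all libraries, and EVX2 never exceeded 2.

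**Figure D2:**
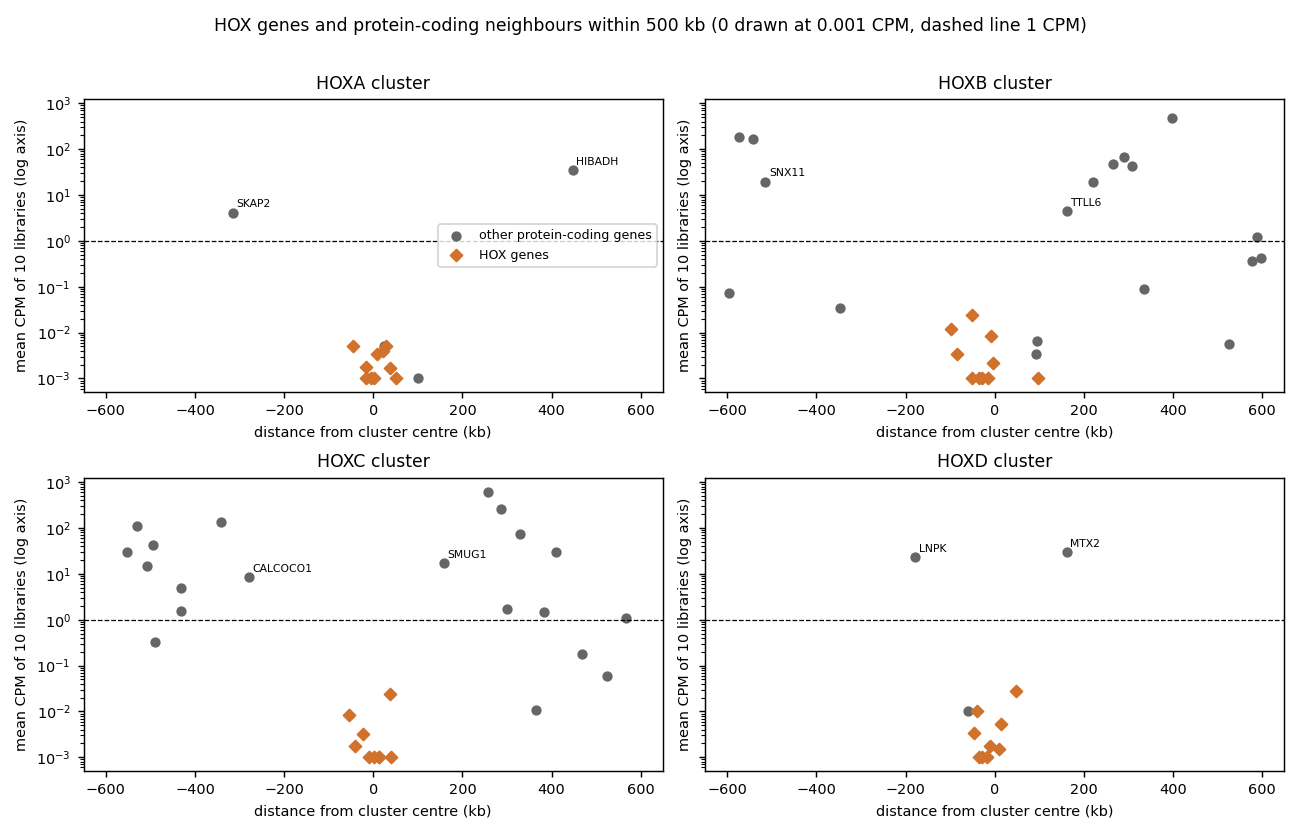
Mean CPM over the 10 libraries (vertical log axis, with 0 drawn at 0.001) of HOX genes (diamonds) and other protein-coding genes in or within 500 kb of a cluster (circles), by the distance of the gene's middle from the middle of its cluster in kb. All diamonds lie under 0.1 CPM, while 29 of 42 flanking genes lie at or above 1 CPM (dashed line) in every combination of population and batch.

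Of 18 flanking genes listed for the 4 clusters, 15 were tested and edgeR called 0 between HHH and general, beside 2.98% of all genes tested. At an unadjusted p under 0.05 in edgeR there were 4. DESeq2 and limma with voom also called 0. Their median log2 fold change was 0.06, against 0.02 over all genes tested. The noncoding RNAs and small genes inside the clusters were as low as the HOX genes. Of 30 listed, 24 had a row, none reached 1 CPM in any combination of population and batch, and none passed the filter on low counts. Together they had 36 counts. HAGLR, which is antisense to HOXD1, had the most in a library, with 5 and 0 counts in general batch 1, 0 and 0 in HHH batch 1, 2, 1 and 1 in general batch 2, and 0, 0 and 2 in HHH batch 2. HOXB-AS1, which overlaps HOXB2 and HOXB3, never exceeded 1 count, and HOXB-AS3 had 0.

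RNA of most cofactors with which HOX proteins bind DNA was well above that of the HOX genes. The lowest values of MEIS1 (0.0353 CPM) and MEIS2 (0.0172 CPM), both in HHH, lay under the highest HOX value of 0.0915 CPM. The cofactors are the PBX proteins and the MEIS and PKNOX proteins, homeodomain factors of the TALE class that also act without HOX proteins. Of 9 listed, 6 had at least 1 CPM in all 4 combinations of population and batch. Of 8 tested, 2 were called, both lower in HHH, where 2.34% of all genes tested were called lower, and the median log2 fold change was -0.22. PKNOX2 was at 3.95 and 3.72 CPM in general and 1.54 and 2.61 in HHH in batch 1, and at 3.19, 3.05 and 3.25 against 1.36, 1.40 and 1.62 in batch 2. No HHH library reached a general one in either batch, and the log2 fold change was -1.02 (SE 0.14, edgeR adjusted p = 5.1e-04).

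MEIS2, called lower in HHH, was itself far under 1 CPM. It had 13 and 14 counts in general and 5 and 3 in HHH in batch 1, and 31, 26 and 12 in general against 1, 11 and 7 in HHH in batch 2. The populations did not overlap in either batch, at 0.2 to 0.54 CPM in general and 0.017 to 0.19 in HHH, and the log2 fold change was -1.66 (SE 0.43, edgeR adjusted p = 0.0362). Pairing the libraries by replicate number, as a block in the fit, gave an adjusted p of 0.0595, and the call was lost. It was also lost without any of 7 of the 10 libraries, namely both general libraries of batch 1 (adjusted p = 0.0503 and 0.0551 in edgeR), HHH replicate 2 of that batch (0.0504), HHH replicates 1 and 3 of batch 2 (0.0776 and 0.0735) and general replicates 1 and 2 of batch 2 (0.114 and 0.0919). MEIS1, known as a target and partner of HOX proteins, had 2 to 20 counts in a library and did not pass the filter on low counts.

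**Figure D3:**
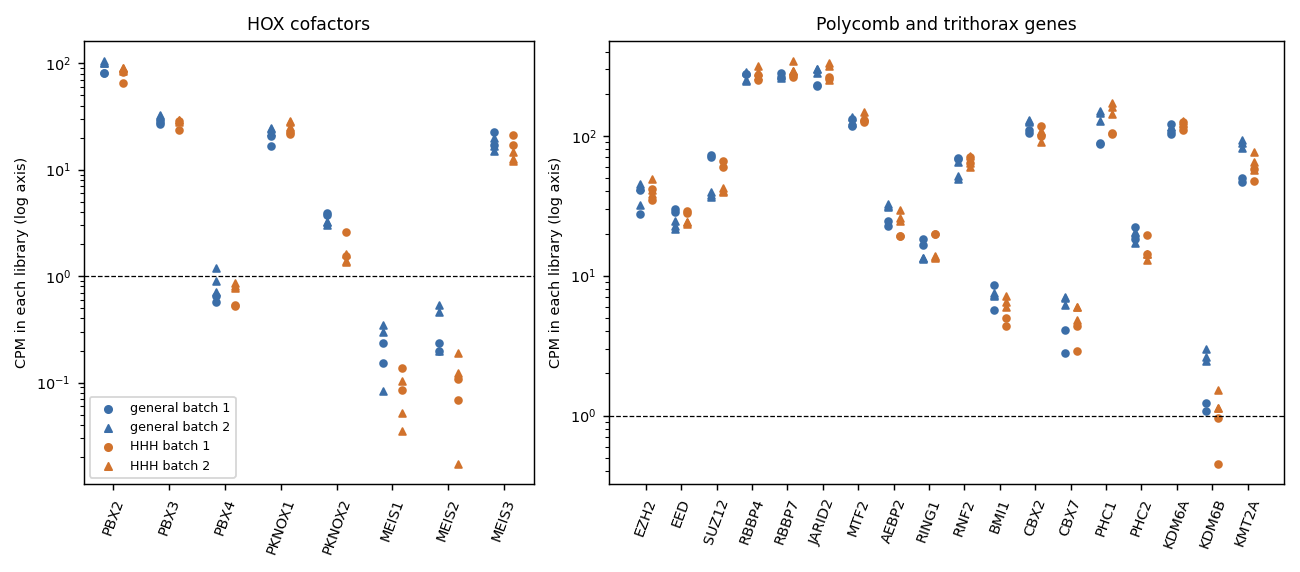
CPM in each library (vertical log axis) of listed HOX cofactors and Polycomb and trithorax genes, in general (blue) and HHH (orange) libraries of batch 1 (circles) and batch 2 (triangles). Most of these genes lie above 1 CPM (dashed line) in every library, and PKNOX2, MEIS2 and KDM6B, the called ones, are lower in HHH in each batch.

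The chromatin regulators of the clusters were expressed in both populations. All 27 measured genes of the Polycomb and trithorax list reached 1 CPM in some combination of population and batch, 25 did so in all 4, and all were tested. The core subunits of Polycomb repressive complex 2, picked after their values were seen, were not called. EZH2, the methyltransferase, averaged 37.7 ± 7.54 CPM (SD, n = 5) in general and 40.8 ± 5.31 (n = 5) in HHH (log2 fold change 0.12, SE 0.12, edgeR adjusted p = 0.626). SUZ12 averaged 51.5 ± 18.7 and 49.7 ± 12.4 CPM, with most of its spread between batches (log2 fold change -0.01, SE 0.07, edgeR adjusted p = 0.941). EED averaged 25.4 ± 3.67 and 25.7 ± 2.56 CPM (log2 fold change 0.02, SE 0.07, edgeR adjusted p = 0.897). The gene called was KDM6B, a demethylase that removes the mark Polycomb repressive complex 2 sets and is known to act at HOX genes. It was at 1.22 and 1.07 CPM in general and 0.45 and 0.961 in HHH in batch 1, and at 2.62, 2.47 and 3.00 against 1.51, 1.14 and 1.13 in batch 2. Its log2 fold change was -0.97 (SE 0.18, edgeR adjusted p = 0.00572), with HHH lower in 5 of 5 libraries than the general mean of its batch. Over the list the median log2 fold change was -0.10, and 1 of 27 called compares with 2.98% of all genes. At an adjusted p under 0.05 in edgeR there were 3, of which KDM6B alone was over 1.5-fold. The others were AEBP2 (log2 fold change -0.27, edgeR adjusted p = 0.0395) and PHC2 (-0.39, 0.0384). Both were lower in 5 of 5 HHH libraries than the general mean of the batch.

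Of the axial regulators that act upstream of HOX genes, 4 of 14 tested were called, 3 lower and 1 higher in HHH, beside 2.34% and 0.637% of all genes tested. RARG missed the call on the 1.5-fold limit only (log2 fold change -0.53, edgeR adjusted p = 0.0022). In batch 2 alone it was called (-0.73, edgeR adjusted p = 9.5e-05). Of the 19 listed, 5 did not pass the filter on low counts in the fit over both batches. CDX1 and CDX2, activators of the central HOX genes, had at most 3 and 7 counts in a library, and TBXT, the factor of the primitive streak, at most 31. WNT8A, chosen after its values were seen, had 19 and 7 counts in general and 2 and 2 in HHH in batch 1. In batch 2 it had 10, 12 and 13 against 0, 1 and 7. The populations did not overlap in either batch for TBXT and WNT8A, and overlapped in batch 2 for CDX1, CDX2 and WNT3A. CYP26A1, which degrades retinoic acid, was at 78.0 and 41.1 CPM in general and 23.4 and 23.9 in HHH in batch 1, and at 24.2, 38.1 and 34.8 against 8.55, 10.4 and 13 in batch 2. The populations did not overlap within a batch, and the log2 fold change was -1.49 (SE 0.17, edgeR adjusted p = 1.1e-04). ALDH1A2, which makes retinoic acid, was under 1 CPM in all libraries, at 0.352 to 0.934 CPM in general and 0.103 to 0.283 in HHH (log2 fold change -1.49, SE 0.34, edgeR adjusted p = 0.0167). Its call was lost without general batch 1 replicate 1 (adjusted p = 0.0534 in edgeR), general batch 2 replicate 3 (0.0524), HHH batch 2 replicate 1 (0.0541) or HHH batch 2 replicate 2 (0.0542).

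WNT5A, a ligand of axis elongation, averaged 3.71 ± 0.541 CPM (SD, n = 5) in general and 2.45 ± 0.336 (n = 5) in HHH (log2 fold change -0.60, SE 0.14, edgeR adjusted p = 0.017). Its fold change lay close to the 1.5-fold limit, and the call was lost without HHH batch 1 replicate 2 (log2 fold change -0.56), HHH batch 2 replicates 2 (-0.58) or 3 (-0.56), or general batch 2 replicates 1 (-0.57) or 2 (-0.53). The adjusted p was also over 0.05 without HHH batch 2 replicate 2 (0.059 in edgeR) or general batch 2 replicates 1 (0.054) or 2 (0.0544). GBX2, which sets the border of midbrain and hindbrain and is also expressed in pluripotent cells, was the gene higher in HHH. It was at 0.628 and 0.586 CPM in general and 0.793 and 2.22 in HHH in batch 1, and at 1.21, 1.07 and 0.933 against 2.21, 2.54 and 1.75 in batch 2 (log2 fold change 1.12, SE 0.23, edgeR adjusted p = 0.00881).

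The hindbrain factors, neighbours of the anterior HOX genes in the segmentation of the embryo, had 3 of 4 tested genes called, GBX2 among them, and both others were lower in HHH, beside 2.98% of all genes called in either direction. EGR2, an activator of group 2 HOX genes in the rhombomeres, averaged 1.29 ± 0.359 CPM (SD, n = 5) in general and 0.594 ± 0.178 (n = 5) in HHH (log2 fold change -1.12, SE 0.17, edgeR adjusted p = 9.4e-04). EPHA4, a receptor at rhombomere borders with many other sites of expression, averaged 34.3 ± 8.22 and 11.7 ± 0.638 CPM (log2 fold change -1.54, SE 0.13, edgeR adjusted p = 6.8e-06). When each batch was fitted by itself, all 9 called genes of these lists were called in batch 2, and in batch 1 the call was kept for EPHA4 only (log2 fold change -1.28 and edgeR adjusted p = 0.0323 there, -1.72 in batch 2). The test of the difference between batches passed for none of the 9. HOXA2 and HOXB2, the HOX genes that EGR2 activates, had 1 and 1 count in general and 2 and 1 in HHH over all libraries.

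**Figure D4:**
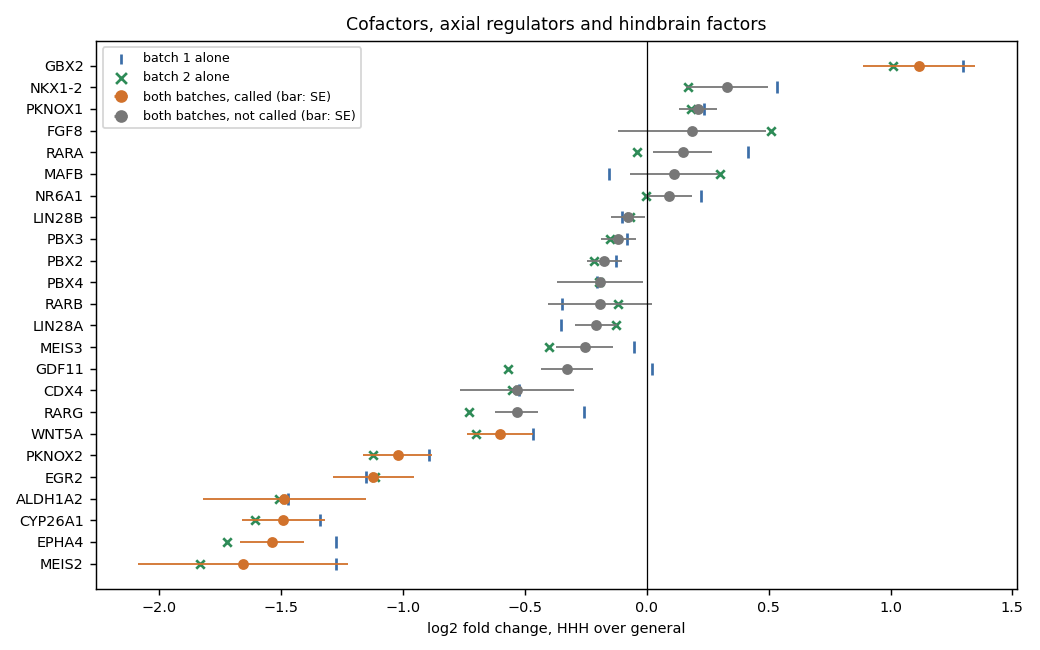
Log2 fold change of HHH over general (horizontal axis) for tested HOX cofactors, axial regulators and hindbrain factors, with SE as bars, called genes in orange and others in grey. Bars for batch 1 alone and crosses for batch 2 alone lie on the same side of 0 for every called gene drawn.

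Markers of other cell types were measured beside these values. Of all genes tested, 2.98% were called, 0.637% higher and 2.34% lower in HHH. All 7 pluripotent stem cell markers exceeded 1 CPM in every combination of population and batch. Their summed level was 3978 to 5394 CPM in general and 3858 to 4997 in HHH. None was called by edgeR, DESeq2 or limma with voom. In edgeR 5 were at an unadjusted p under 0.05, and 2 were at an adjusted p under 0.05 but not over 1.5-fold. Of the 5 neural progenitor markers, SOX1 and ZIC1 were called lower in HHH. The summed level was 9.59 and 9.65 CPM in general and 9.45 and 10.4 in HHH in batch 1. In batch 2 it was 16.8, 17.8 and 18.2 CPM in general and 15.8, 14.7 and 13.9 in HHH, without overlap. The part of such cells in the lower EGR2, EPHA4 and MEIS2 was not tested. Posterior mesoderm and neuromesodermal markers, of cells known to express HOX genes, summed to 4.62 to 7.11 CPM in general and 4.19 to 7.43 in HHH, and MSGN1 was at 0 in all libraries. NKX1-2 held 4.88 CPM of the highest general sum and 6.53 of the highest HHH sum. It was not called (log2 fold change 0.33), nor was CDX4 (-0.53). TBXT, which did not pass the filter in the fit over both batches, was at 0.168 and 0.134 CPM in general and 0.0428 and 0.0686 in HHH in batch 1. In batch 2 TBXT was at 0.486, 0.544 and 0.416 CPM in general and 0.120, 0.155 and 0.124 in HHH. Of the 7 fibroblast markers, COL1A1 was called lower and THY1 higher in HHH. The 7 summed to 260 to 279 CPM in general and 290 to 343 in HHH. Only 3 of them had at least 1 CPM in all 4 combinations of population and batch, and DCN, LUM and COL3A1 never exceeded 0.123 CPM in a library. The part of fibroblasts in this sum was not tested. Of the neural crest markers SOX10 was called lower, and FOXD3, also a factor of pluripotent cells, was higher in 5 of 5 HHH libraries but under 1.5-fold (log2 fold change 0.44, edgeR adjusted p = 0.0391, and 0.83 with an adjusted p of 0.0481 in batch 1 by itself). The neural crest list summed to 14.6 and 12.9 CPM in general and 23.5 and 22.1 in HHH in batch 1. In batch 2 it summed to 12.7, 13.3 and 13.1 CPM in general and 12.4, 13.4 and 12.8 in HHH. Definitive endoderm markers summed to 1.10 to 1.98 CPM in general and 1.04 to 2.81 in HHH, and haematopoietic markers to 0.459 to 0.816 and 0.514 to 1.07.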

How the data were processed

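RNA of 10 libraries (TruSeq RNA kit) was sequenced by the authors, 5 general and 5 HHH, whose population, batch and replicate are given in the titles. The counts per Ensembl gene, whole numbers that the authors deposited without normalization, were used here. A second table holds log2 values, called a score here and described by its name as TMM-scaled RPKM, which the authors deposited and which served as an alternative only. The submitters' processing notes name CASAVA 1.8.2, R 3.2.2, limma 3.26.9 and GRCh37. The aligner, the counter and the annotation are not given in the sources used here. The study's text names the line WA09 and the labels HES9, which is not resolved here.

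Of the 55841 identifiers, 49395 matched GENCODE 44 (GRCh38), the source of symbols, coordinates, exonic lengths and overlaps. PCGF2, KMT2B and 6 of the 30 listed cluster genes had no matching row and are not analysed here, and a few genes are counted in sums but not reported singly here. CPM used TMM-scaled library sizes, with factors of 0.832 to 1.18, and 1 count stood for 0.0153 to 0.0229 CPM. HHH and general were compared with edgeR 4.0.16 in R 4.3.3 (quasi-likelihood F test, two-sided), with batch as a term, filterByExpr at a minimum count of 10, and Benjamini-Hochberg adjustment over all 23552 genes tested. Calls required an adjusted p under 0.05 and a change of over 1.5-fold. The test was checked on simulated counts. Nothing in the labels says that replicates came from separate cultures, so p-values measure only the spread between these libraries. Same-numbered libraries of batch 2 deviated together, with correlations of 0.239, 0.143 and 0.113. Batch 1 shares 1 number, and with 2 libraries per population its correlation of 0.113 is forced to equal that of a differently numbered pair and was not informative. The replicate number was used as a block in an alternative.

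The HOX genes and all lists (cofactors, Polycomb and trithorax, axial regulators, hindbrain factors, cluster noncoding RNAs, flanking genes, markers) were chosen with earlier results of these data known. Named were HOX members, the called genes of each list (at most 6 by adjusted p), listed genes that a HOX gene overlaps, and markers. Others are said to be chosen after their values were seen. The alternatives left out the batch term, added the replicate block, changed the scaling (RLE, upper quartile, no scaling), the filter or the thresholds, removed a trend with GC content, used DESeq2 1.42.0 or limma 3.58.1 (with voom, or on the deposited log2 values), and took single batches or dropped 1 library at a time.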

Additional observations from a re-analysis of the deposited data

Results flagged for a closer look

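No HOX gene or cluster noncoding RNA entered the interaction test, so it says nothing of them. Of the genes of the other HOX-related lists that were tested, none passed it. Of the markers named, COL1A1, a collagen chain, passed it (edgeR adjusted p = 0.0315 for the difference), at a log2 fold change of HHH over general of -0.34 in batch 1 and -1.35 in batch 2. Groups of 2 and 3 libraries were not screened for outlying libraries.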

How the results depend on the processing

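All 39 HOX genes stayed under 1 CPM in each population and batch at 0.5 CPM and 2 CPM, with unscaled library sizes and per kilobase (under 1 RPKM). Calls for HOX genes could be had only without the filter on low counts. Cluster noncoding RNAs, and the test of the difference between batches for HOX genes, had no gene past the filter and no value under the alternatives run for them. The summed CPM of HOXA in HHH batch 2 was 0.0115 without members that overlap another gene by 20%, and with unscaled sizes HHH batch 1 was at 0.0782 for HOXC and 0.0195 for HOXD. With 1 library left out, the cofactors called ran from 1 to 2 and the axial regulators from 2 to 5. Cofactors called were 1 in the replicate block (MEIS2 lost) and 1 in DESeq2, which gave MEIS2 no adjusted p. The block ended no other call among the 9 named genes of the lists. In batch 1 alone 0 cofactors, 0 Polycomb and trithorax genes and 0 axial regulators were called. Of those 9 genes 7 lost the call with no batch term and 2, MEIS2 and GBX2, with limma on the deposited log2 values, and none changed direction under any alternative. For HOX genes counts of 0 to 4 limit any comparison.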
